A study of Mus musculus with 3 samples.

Results

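The genes described here encode the proteins at the centre of amyloid, tau and synuclein biology: the amyloid precursor App and its paralogues Aplp1 and Aplp2, the secretase components Bace1 and Psen2, the microtubule-associated protein tau (Mapt), beta-synuclein (Sncb) and apolipoprotein E (Apoe). They were found by gene symbol, as probe sets to which the platform annotation gives exactly 1 symbol. Each of the 8 genes had 1 such probe set, so 8 of 14938 single-gene probe sets, and 8 of 14806 named genes, are described. The RNA came from the neocortex of 3 wild type mice of the outbred CD1 stock at postnatal day 13, with 1 array per animal. No other genotype, treatment or age was measured, and the 3 animals form a single group, so the values describe levels and the spread between animals. The labels name no sorting of cells, and in bulk RNA fewer cells of a type and less RNA per cell cannot be told apart. All values are log2 of the deposited intensity, with the SD over mice (n = 3).

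App is a membrane protein of neurons and other cells that is cut by secretases. Alpha-secretases of the Adam family cut within the amyloid-beta stretch, while Bace1 cuts at its start and the gamma-secretase complex, whose catalytic subunit is a presenilin such as Psen2, then releases the amyloid-beta peptide. Aplp1 and Aplp2 are processed by the same secretases but hold no amyloid-beta stretch. Tau binds and stabilises axonal microtubules, beta-synuclein is a presynaptic protein of neurons, and Apoe is the main lipid carrier that astrocytes secrete. The arrays measured RNA only.

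The APP family is the set of paralogues among these genes, and the stretches around their start sites are shown to let their base composition be compared. RefSeq holds windows from 250 bases before to 50 bases after a start for 6 of the 8 genes (9 windows, build GRCm38.p6), with none used here for Bace1 and Mapt. The App window is chr16:85173658-85173957, the Aplp1 window chr7:30445533-30445832 and the Aplp2 window chr9:31211799-31212098, all on the minus strand. Each is printed 5′ to 3′ in lower case, with the letters GGGCGG, the core of the GC box bound by Sp1 factors, in capitals. Both strands were searched, and no matches overlapped.
App: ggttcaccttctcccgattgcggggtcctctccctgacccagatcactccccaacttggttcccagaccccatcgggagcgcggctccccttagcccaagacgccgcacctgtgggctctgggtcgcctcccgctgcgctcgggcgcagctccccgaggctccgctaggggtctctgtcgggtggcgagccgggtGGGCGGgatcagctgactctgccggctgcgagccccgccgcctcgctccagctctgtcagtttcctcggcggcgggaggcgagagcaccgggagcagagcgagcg
Aplp1: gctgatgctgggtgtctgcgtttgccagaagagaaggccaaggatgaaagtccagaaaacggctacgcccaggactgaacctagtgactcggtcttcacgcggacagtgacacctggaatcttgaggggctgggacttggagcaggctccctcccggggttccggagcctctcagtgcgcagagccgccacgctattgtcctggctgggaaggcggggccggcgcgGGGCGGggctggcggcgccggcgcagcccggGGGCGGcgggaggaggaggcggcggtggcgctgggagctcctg
Aplp2: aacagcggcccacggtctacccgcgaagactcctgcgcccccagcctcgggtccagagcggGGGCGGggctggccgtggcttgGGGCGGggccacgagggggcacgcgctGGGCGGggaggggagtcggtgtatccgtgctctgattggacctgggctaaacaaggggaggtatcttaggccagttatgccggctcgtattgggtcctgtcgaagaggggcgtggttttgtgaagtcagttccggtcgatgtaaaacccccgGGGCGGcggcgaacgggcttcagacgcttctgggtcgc
The App window held 1 GC box, the Aplp1 window 2 and the Aplp2 window 4, and none of the 3 held the TATA letters TATAAA on either strand. GC content was 71.0% for App, 68.7% for Aplp1 and 67.0% for Aplp2, against a median of 52.7% over all 32851 RefSeq windows. The observed over expected CpG ratio was 0.80, 0.77 and 0.90 in the same order, against a median of 0.38. GGGCGG occurred in 5 of the 9 windows of the 6 genes, against 35.7% of all windows, and TATAAA in 1, against 13.6%. Psen2 had 4 GC boxes in its upstream window and 0 in the other, Sncb had 2, and none of the 3 Apoe windows had any. The window with TATAAA belonged to Apoe. These matches describe the letters of the windows and say nothing of which factors act there.

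All 8 genes were far above background in every mouse. The background limit of an array was the 95th percentile of 951 probe sets of receptors of the nose (olfactory, vomeronasal and trace amine), which neocortex is not thought to express, and lay between 6.69 and 6.86. All 8 exceeded it on all 3 arrays, where 74.6% of all single-gene probe sets did. The smallest margin of a gene on any array ran between 2.21 for Psen2 and 6.64 for Apoe. The median of the 8 mean levels was 12.27, against 8.90 over all single-gene probe sets. Probes differ in brightness for reasons other than RNA, so no gene is ranked against another. The genes were chosen as known brain genes, and nothing is read from their count above background.

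**Figure D1:**
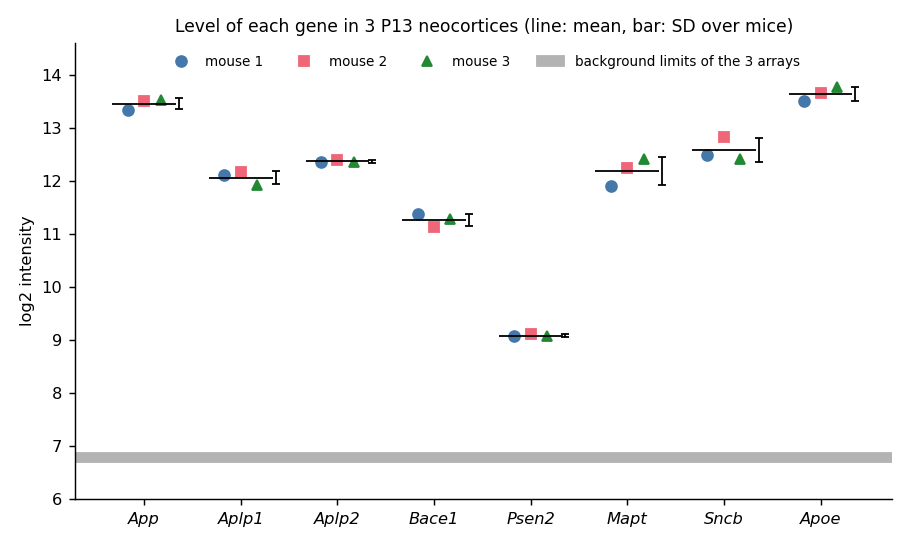
Log2 intensity of the 8 genes in each mouse (points by colour and shape), with the mean (line) and SD over 3 mice (bar). The grey band spans the background limits of the 3 arrays, 6.69 to 6.86, and every point lies above it.

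App, the precursor itself, had log2 intensities of 13.33, 13.49 and 13.52 in mice 1, 2 and 3. Mouse 1 was the lowest and mice 2 and 3 lay close together, with a mean of 13.45 ± 0.10, and the highest exceeded the lowest 1.14-fold. After quantile normalization between arrays the order turned round, with 13.48, 13.43 and 13.41, so which mouse was highest for App depends on the scaling. Aplp1, a neuronal paralogue found at synapses, stood at 12.11, 12.16 and 11.91. It was lowest in mouse 3 as deposited, after quantile normalization and with array medians aligned, and its mean was 12.06 ± 0.13, or 1.19-fold between the extreme mice. Aplp2, the widely expressed paralogue, was at 12.35, 12.39 and 12.35. Its mice could hardly be told apart, with a mean of 12.36 ± 0.02 and a 1.03-fold difference.

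The components of the cutting enzymes were measured in the same RNA. Bace1, the beta-secretase, was at 11.37, 11.13 and 11.27, a mean of 11.26 ± 0.12. Mouse 2 was the lowest under every scaling tried, although all probe sets of like level lay on the median 0.11 above their mean in that mouse, and the difference between mouse 1 and mouse 2 was 1.18-fold. Psen2, the presenilin of the gamma-secretase complexes of late endosomes and lysosomes, was at 9.07, 9.10 and 9.06. Its mean was 9.08 ± 0.02 and the extreme mice differed 1.03-fold.

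Mapt, which encodes tau, had the widest spread of the 8 genes as deposited and with array medians aligned, but not after quantile normalization, where Bace1 did (SD 0.24, against 0.17 for Mapt). It was at 11.89 in mouse 1, 12.24 in mouse 2 and 12.42 in mouse 3, a mean of 12.18 ± 0.27 and a 1.44-fold difference between mouse 3 and mouse 1. Mouse 1 was the lowest and mouse 3 the highest as deposited, after quantile normalization (12.03, 12.14 and 12.36) and with array medians aligned (11.87, 12.17 and 12.50). Sncb, beta-synuclein, was at 12.48, 12.83 and 12.40, a mean of 12.57 ± 0.23. Mouse 2 stood apart from the other 2 animals, 1.34-fold above mouse 3, and stayed the highest under each of these scalings. Apoe was at 13.50, 13.65 and 13.76, a mean of 13.64 ± 0.13. Mouse 3 was 1.20-fold above mouse 1 as deposited, while after quantile normalization the 3 mice lay within 0.06 with mouse 3 the lowest.

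None of the 8 genes passed a test for a larger spread between the mice than other genes of its level had. The test compares a probe set's variance over the 3 arrays with the variance that limma's robust prior, with a trend on level, gives for its mean, and adjusts p-values over all 13811 probe sets above the limit. In limma's model 0 of the 8 genes passed at a Benjamini-Hochberg adjusted p under 0.05, where 0.0652% of all probe sets passed. At an unadjusted p under 0.05 the count was also 0 of 8, against 5.21% of all probe sets. It was 1 of 8, Sncb, after quantile normalization (limma, unadjusted p = 0.0392, adjusted p = 0.974) and without mouse 1 (unadjusted p = 0.000136, adjusted p = 0.067). The 5.21% is for all 3 mice as deposited, and no such share is given for these alternatives. At the adjusted threshold 2 probe sets passed after quantile normalization and 25 without mouse 1, against 9 as deposited with all mice. Mapt had an SD of 0.27 where 0.17 was expected at its level (limma, unadjusted p = 0.110, adjusted p = 0.980). Sncb had an SD of 0.23, also where 0.17 was expected (limma, unadjusted p = 0.191, adjusted p = 0.980). As deposited, the SD of Sncb was 0.05 without mouse 2 and 0.30 without mouse 1, and that of Mapt was 0.13 without mouse 1. After quantile normalization mouse 3 was the farthest out for Sncb (12.61, 12.72 and 12.35). The probe sets that did pass had SDs of 0.84 or more, well beyond the spreads seen here, so the count of 0 does not show that the animals were alike.

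The other 6 genes had SDs at or below 0.13 as deposited. Some of these depended on the scaling: after quantile normalization the SD was 0.24 for Bace1, 0.19 for Aplp1 and 0.11 for Aplp2, while those of App and Apoe were 0.03. The median SD of the 8 was 0.12, against 0.16 over all single-gene probe sets above the limit, which differ in level. For probe sets of like level the median was 0.15 in the bin of App, Aplp1, Aplp2, Mapt, Sncb and Apoe. It was 0.14 in that of Bace1 and 0.17 in that of Psen2. Among the 691 probe sets in its level bin, 1 of 20 bins, the SD of Mapt exceeded 94.4% and that of Sncb 85.8%. For App the share was 27.6%, for Apoe 41.5%, for Aplp1 42.0% and for Bace1 40.1%. Aplp2 and Psen2 were at the low end, each with an SD above only 1.59% of its bin. Over all 13811 probe sets, 195 had a smaller SD than Aplp2 and 209 a smaller one than Psen2.

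**Figure D2:**
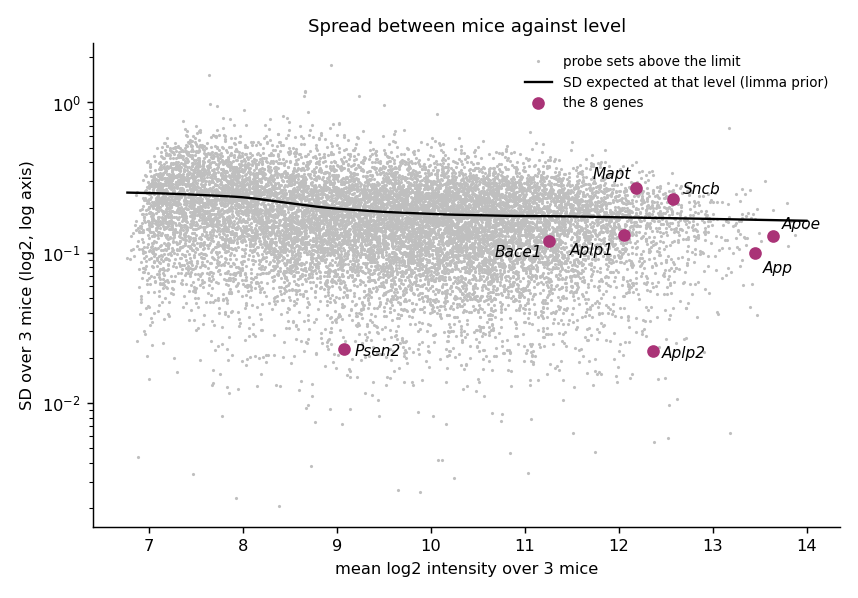
SD over 3 mice (log axis) against mean log2 intensity for the 13811 probe sets above the limit (grey), with the SD expected at each level (black line) and the 8 genes (purple). Mapt and Sncb lie above the line, and Aplp2 and Psen2 far below it at SDs of 0.02.

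Probe sets of like level shifted together between the mice, and the 8 genes differed in how far they followed. In the brightest of the 20 bins, which held App, Aplp1, Aplp2, Mapt, Sncb and Apoe, the median probe set deviated from its mean over the mice by -0.15 in mouse 1, 0.09 in mouse 2 and 0.06 in mouse 3. App stayed close to this shift, with deviations from it between -0.05 and 0.04, and so did Apoe, between -0.07 and 0.06. Relative to the shift, Mapt still lay at -0.14 in mouse 1 and 0.18 in mouse 3, a range of 0.32 or 1.24-fold. Sncb lay at 0.17 in mouse 2 and -0.22 in mouse 3, a range of 0.39. Bace1 and Aplp1 had the widest relative ranges, 0.47 and 0.41, both wider than as deposited (0.24 and 0.25). Bace1 was at 0.23 in mouse 1 and -0.24 in mouse 2, and Aplp1 at 0.20 in mouse 1 and -0.21 in mouse 3. Aplp2 and Psen2, nearly flat as deposited, had relative ranges of 0.21 and 0.10.

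Which animal was highest or lowest differed between the genes. As deposited, 4 of 8 were lowest in mouse 1 (App, Aplp2, Mapt and Apoe), where 53.4% of all single-gene probe sets above the limit were. Likewise 4 of 8 were highest in mouse 2 (Aplp1, Aplp2, Psen2 and Sncb), where 59.5% of all were. Relative to probe sets of like level, 1 of 8 was lowest in mouse 1, namely Mapt, against 40.8% of all, and 5 of 8 were highest there, against 39.7%. The ranks of Aplp2 and Psen2 turn on ranges over the mice of 0.04.

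**Figure D3:**
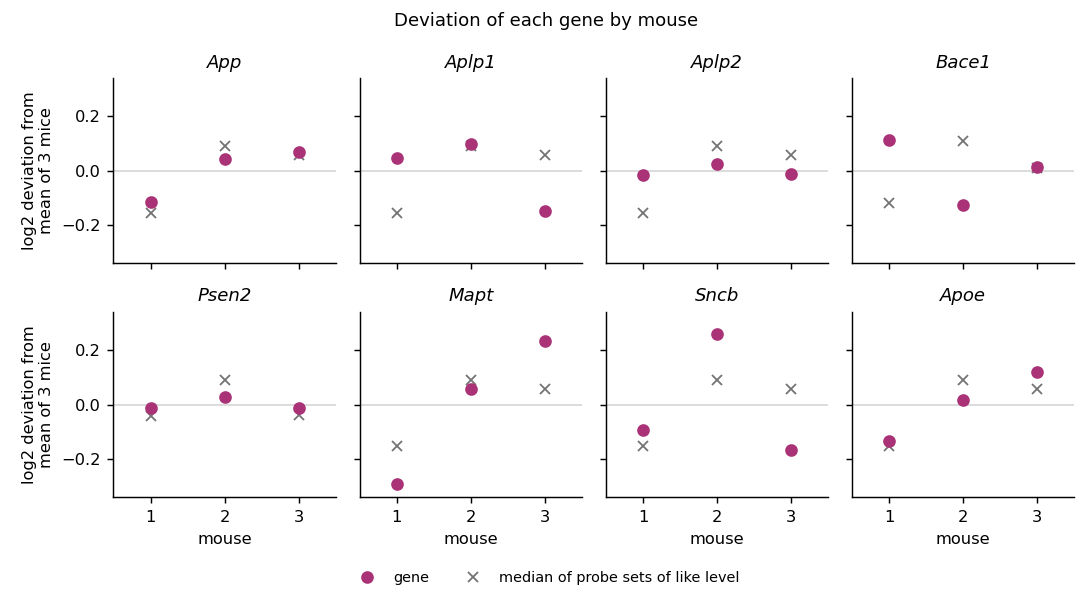
Deviation of each gene from its own mean over the 3 mice (purple points), by mouse, in log2 units, with the median deviation of probe sets of like level (grey crosses). Mapt in mice 1 and 3, Sncb in mice 2 and 3, Aplp1 in mice 1 and 3, Aplp2 in mouse 1 and Bace1 in mice 1 and 2 lie away from the crosses.

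Differences between a pair of genes within an array remove any shift that both share. Over the 28 pairs, the difference varied between mice by a median of 0.38. Aplp1 minus Mapt was 0.22, -0.08 and -0.51 in mice 1, 2 and 3, a range of 0.72 and the widest of the pairs. Mapt minus Sncb was -0.59 in mice 1 and 2 and 0.01 in mouse 3. App minus Bace1, the precursor and its beta-secretase, was 1.96, 2.36 and 2.25, and App minus Apoe was -0.17, -0.16 and -0.24. Aplp2 minus Psen2 was 3.28, 3.28 and 3.29. These differences hold probe effects, so only their change between mice can be read, and with 1 array per animal that change has no test.

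Genes that act with the 8 in the same pathways were taken from 10 lists of 85 genes. Of these, 66 were measured, 65 were above the limit on every array (74.6% of all single-gene probe sets were), and in limma's model 0 of the 65 tested passed the adjusted test, with 2 at an unadjusted p under 0.05, against 5.21% of all. These 2 were Map6 and Tyrobp, a microglial signalling adaptor of Trem2 that was named after its values were seen. Tyrobp was at 8.54, 9.64 and 9.66 (limma, unadjusted p = 0.000454, adjusted p = 0.241). As deposited, mouse 1 gave the lowest value for 32 of the 66 genes, against 53.4% of all single-gene probe sets above the limit, and mouse 2 gave the highest for 32, against 59.5%. Their median SD was 0.13.

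Partners in App processing were measured on both sides of the alpha and beta cut. Of the gamma-secretase list 2 of 6 genes were measured: Ncstn (nicastrin, the substrate receptor) at 10.82 ± 0.27 and Aph1c, a scaffold subunit, at 8.73 ± 0.19. Of the sheddases 3 of 4 were measured, with Adam10, the main neuronal alpha-secretase, at 11.09 ± 0.02, Adam9 at 11.04 ± 0.07 and Bace2, a paralogue of Bace1, at 8.99 ± 0.02. All 3 had SDs below the 0.12 of Bace1. The proteases that degrade amyloid-beta were all measured and above the limit: Mme (neprilysin) at 8.92 ± 0.13, Ide (insulin-degrading enzyme) at 10.29 ± 0.13, Ece1 at 9.57 ± 0.03 and Ece2 at 8.99 ± 0.12. A second probe set of Ece2 was at 7.12 ± 0.06, so probe sets of 1 gene can differ widely in level.

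Genes for proteins that bind App or move it through the cell were above background too. All 9 genes of the list of adaptors, which also holds the membrane proteins Itm2b and Itm2c, were above the limit, among them Apbb1 (Fe65) at 11.92 ± 0.17, Apba1 and Apba2 (Mint proteins) at 11.48 ± 0.14 and 11.28 ± 0.11, and Mapk8ip1 (Jip1), which links cargo to kinesin, at 12.55 ± 0.09. Of the sorting list 7 of 10 were measured and above the limit. Sorl1, a sorting receptor for App, was at 10.70, 10.38 and 10.29, highest in mouse 1 under every scaling tried. Bin1, which bends endocytic membranes, was at 12.18, 12.45 and 12.58, lowest in mouse 1 and highest in mouse 3 under every scaling, as Mapt was. Sorcs1 was at 9.45 ± 0.16, and Vps35, a core subunit of the retromer, at 11.43 ± 0.25.

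Among the genes that modify tau, 11 of 12 in the kinase list, which also holds activator subunits of Cdk5, were measured. So were 6 of 9 phosphatase and folding genes, and all of those measured were above the limit. Gsk3b, a major tau kinase, was at 12.29 ± 0.12, Cdk5 at 12.07 ± 0.16, Mark1 at 10.83 ± 0.08 and Fyn at 12.50 ± 0.04. Ppp2ca, the catalytic subunit of the main tau phosphatase, was at 13.36 ± 0.12, its regulatory subunit Ppp2r2b at 12.08 ± 0.12, its scaffold Ppp2r1a at 12.91 ± 0.02, and the ubiquitin ligase Stub1 at 12.50 ± 0.14. The medians of the kinase list deviated from the mean over mice by -0.01, 0.09 and -0.07 in mice 1, 2 and 3, where Mapt itself deviated by -0.29, 0.06 and 0.23. Which mouse had the highest kinase median depended on the scaling, being mouse 1 after quantile normalization (0.09, -0.02 and -0.07). Of the microtubule-associated proteins 5 of 6 were measured. Map1b was at 12.80 ± 0.09, Map2, the dendritic relative of tau, at 12.23 ± 0.10 and Map4 at 10.88 ± 0.08. Map6, which protects microtubules from cold, was at 10.91, 10.49 and 9.98, so it was highest in mouse 1 and lowest in mouse 3 under every scaling tried, opposite to Mapt. Its SD of 0.47 gave an unadjusted p of 0.00493 and an adjusted p of 0.631 in limma's model.

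In the synuclein and Parkinson list 8 of 11 genes were measured and above the limit. Sncg, gamma-synuclein, was at 9.63, 9.63 and 9.56 in mice 1, 2 and 3, so mice 1 and 2 lay together. Park7 (DJ-1) was at 12.53 ± 0.18 and Uchl1, an abundant neuronal ubiquitin hydrolase, at 13.24 ± 0.24. Of the lipoprotein list 11 of 14 were measured and 10 were above the limit. Clu (clusterin), the other main apolipoprotein of astrocytes, was at 12.58, 12.90 and 12.88, lowest in mouse 1 under every scaling tried. Apoe was lowest there too as deposited, but not after quantile normalization. The cholesterol exporters that lipidate Apoe were highest in mouse 1, with Abca1 at 10.06, 9.86 and 9.72 and Abcg1 at 9.99, 9.85 and 9.89, although Abcg1 was highest in mouse 3 with array medians aligned (9.97, 9.78 and 9.97). The Apoe receptor Lrp1 was at 10.84, 10.68 and 10.54, highest in mouse 1 under every scaling. None of these passed the variance test, their adjusted p in limma lying between 0.988 (Clu) and 0.997 (Abcg1). Nr1h3, a sterol-sensing nuclear receptor, was at 6.98, 7.15 and 6.52 and exceeded the limit on 2 arrays.

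**Figure D4:**
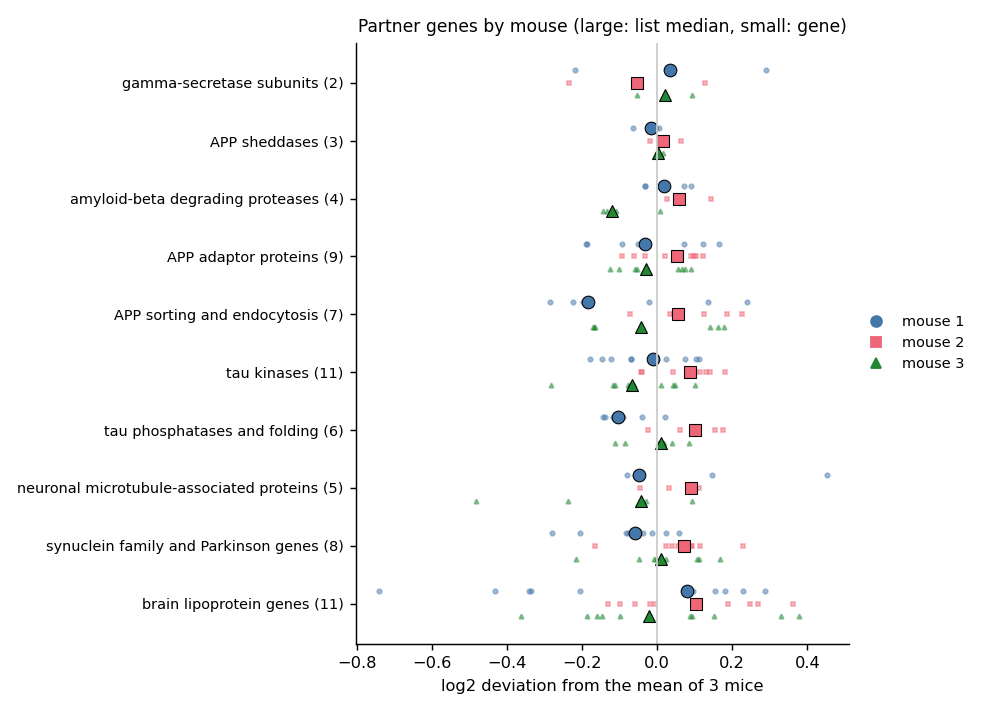
Log2 deviation from the mean of the 3 mice for the 10 lists of partner genes (number measured in brackets), by mouse. Large symbols are list medians and small ones single genes. The widest list median is -0.18, for the sorting list in mouse 1.

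Markers of the cell types in the tissue also varied between the mice, and their part in the values above was not tested. All 9 neuronal and 8 astrocyte markers measured were above the limit, as were 10 microglial, 7 oligodendrocyte, 7 endothelial, 8 meningeal, 5 choroid plexus and 6 striatal ones. Of all single-gene probe sets 74.6% were. The neuronal list, with Snap25 at 12.89 ± 0.10 and Syt1 at 13.18 ± 0.11, had median deviations of -0.11, 0.07 and 0.09 in mice 1, 2 and 3 (0.04, -0.01 and -0.01 after quantile normalization), and summed intensities between 53635 and 61021. The astrocyte list, with Aqp4 at 12.20 ± 0.05 and Gfap at 11.11 ± 0.15, had -0.15, 0.07 and 0.07, with sums between 25975 and 30142. Apoe, secreted mainly by astrocytes, deviated by -0.14, 0.02 and 0.12 as deposited. After quantile normalization the astrocyte medians were -0.03, -0.02 and 0.04, with mice 1 and 2 hardly apart. The microglial list, with Csf1r at 10.78 ± 0.04 and Cx3cr1 at 9.56 ± 0.07, had a median lowest in mouse 1 under every scaling, at -0.29, 0.17 and 0.08, with sums between 7435 and 9957. The markers did not all follow it: Cx3cr1 was lowest in mouse 3 as deposited, and after quantile normalization both Csf1r and Cx3cr1 were highest in mouse 1.

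The oligodendrocyte list, with Mbp at 12.86 ± 0.10 and Mog at 12.56 ± 0.19, had -0.11, -0.02 and 0.14, with sums between 38071 and 44667. After quantile normalization mouse 2 had the lowest oligodendrocyte median (0.04, -0.11 and 0.07). As deposited, the neuronal, astrocyte and oligodendrocyte medians all rank mouse 1 lowest and mouse 3 highest, as App, Mapt and Apoe do. Mouse 1 was also lowest for 53.4% of all single-gene probe sets above the limit. Relative to probe sets of like level, these medians were lowest in mouse 2. They were 0.04, -0.02 and 0.03 (neuronal), -0.02, -0.03 and 0.05 (astrocyte), and 0.05, -0.11 and 0.08 (oligodendrocyte). Mice 1 and 2 were hardly apart for the astrocyte list, and 5 of its 8 markers were lowest in mouse 1. Of the neuronal markers 6 of 9 were lowest in mouse 2, and of the oligodendrocyte ones 6 of 7. On the same measure App and Apoe were lowest in mouse 2, and Mapt still in mouse 1. Sncb was highest in mouse 2, and so were the medians of 4 lists as deposited: the microglial one, the meningeal one (-0.33, 0.35 and -0.03, sums between 13822 and 20974), the striatal one (-0.33, 0.23 and 0.08, sums between 13995 and 20748) and the choroid plexus one (-0.12, 0.07 and 0.05). The summed intensity of the choroid plexus list was 11295, 13439 and 13726, highest in mouse 3. Of these 4, the meningeal median alone was highest in mouse 2 under every scaling tried. Mouse 2 was also highest for 59.5% of all single-gene probe sets above the limit. Relative to probe sets of like level, the meningeal and striatal medians stayed highest in mouse 2. The microglial and choroid plexus medians were then highest in mouse 3. The endothelial median was highest in mouse 1 under every scaling (0.21, -0.04 and -0.13, sums between 3239 and 3803). The markers did not all follow it: as deposited, 5 of the 7 were highest in mouse 1 and 2 were lowest there. With 3 animals, a likeness between a gene and a list is a description.

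**Figure D5:**
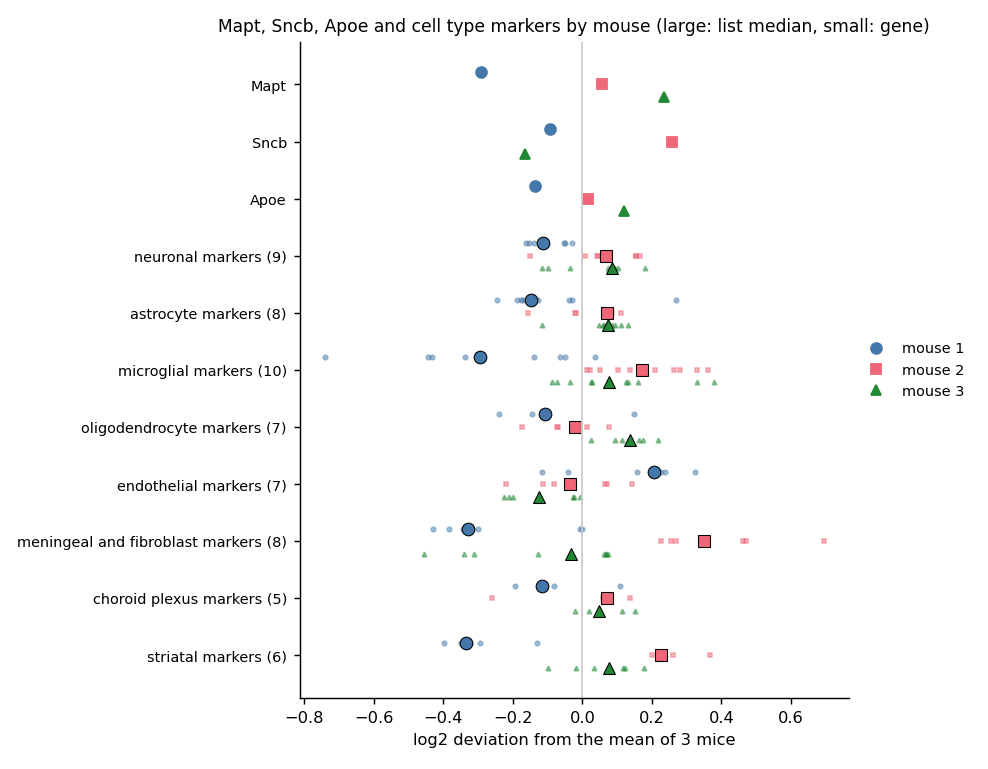
Log2 deviation from the mean of the 3 mice for Mapt, Sncb and Apoe (single values) and for 8 lists of cell type markers (large symbols: list medians, small: genes; number measured in brackets). In the meningeal and striatal lists mouse 1 has the lowest median, -0.33 in both, and mouse 2 the highest as deposited, while with array medians aligned the striatal median is highest in mouse 3.

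For each gene the nearest pattern among 11150 other single-gene probe sets above the limit was found by the root mean square difference of deviations over the 3 arrays. These were Parm1 for App, Sun1 for Aplp1, Glce for Aplp2, Psd2 for Bace1, Elavl3 for Psen2, Agpat4 for Mapt, Dbx2 for Sncb and Adssl1 for Apoe. All differed from their gene by 0.01 or less. With 3 arrays such closeness is common: 589 probe sets, or 5.28%, kept within 0.05 of App in every mouse, and 733 did so for Aplp2. For Mapt the number was 69, or 0.62%, and for Sncb 120, or 1.08%.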

How the data were processed

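RNA extracted from neocortex with Trizol was labelled by Affymetrix's sense target assay for whole transcripts and hybridised to 3 arrays, per the labels' protocols. The series' design text gives each biological replicate its own array. The authors deposited linear intensities, 1 per probe set. The submitters' processing notes name Affymetrix Power Tools and the mm8 build, while the steps of background correction, normalization and summary were not given in the sources used here. Overall brightness still differs between arrays (median intensities 248.1, 256.6 and 230.6). The number of arrays limits the precision.

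No pseudocount was added before taking log2. The platform annotation gave 1 gene symbol to 14938 of 23172 probe sets, several to 989 and none to 7245. Where a listed gene had several probe sets, the brighter was used. Excess variance was tested with limma 3.58.1 (fitFDistRobustly with a trend, R 4.3.3) over 13811 probe sets above the limit, after a check on simulated data. Deviations relative to level subtract the median of 1 of 20 equal bins.

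The members, lists and tests were chosen with earlier results of these data known. Named genes are the 8 members, the first 4 measured genes of each pathway list, listed genes below the limit, the first 2 measured genes of a marker list (given for 4 of the 8 lists), and the nearest pattern of each member. A gene that this rule names in the synuclein and Parkinson list is not reported here, and Tyrobp, Itm2b and Itm2c were named outside it. Alternatives were quantile normalization, medians aligned between arrays, a pseudocount of 16, each mouse left out, other limits, other forms of the prior, and no filter. Leaving out mice for the count above the limit, and the scalings for partner genes and list medians, were added after seeing the data.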

Additional observations from a re-analysis of the deposited data

How the results depend on the processing

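All 8 genes stayed above the limit in 8 alternatives. Only the 99th percentile of the receptor probe sets could lower that count. The others, quantile normalization among them, keep the order of values within an array, leave out an array or lower the limit. The 99th percentile was exceeded by 61.1% of single-gene probe sets. None of the 8 genes passed limma's variance test in 9 alternatives. The number of probe sets passing that test was 9 with all mice, 25, 13 and 9 without mouse 1, 2 and 3, 2 after quantile normalization, 6 with array medians aligned, 5 with the 99th percentile limit, 18 with no filter, 8 with a prior that is not robust and 6 without a trend. The lowest adjusted p of a member was 0.067, for Sncb without mouse 1, and between 0.974 and 0.994 in the other alternatives. The count of genes lowest in mouse 1 was 4, against 53.4% of all single-gene probe sets above the limit. It was 1 after quantile normalization (41.2% of all) and 1 relative to like level (40.8%). It was 4 without mouse 2 (57%) and 7 without mouse 3 (71%). The count highest in mouse 2 was 4, against 59.5% of all. It was 1 after quantile normalization (32.1%), 2 with array medians aligned (31.5%) and 1 relative to like level (32.3%). It was 4 without mouse 1 (77%) and 7 without mouse 3 (71%). The median level of 12.27 ran between 12.25 and 12.35 with a mouse left out, the highest without mouse 1. Of 56 levels of single genes under alternatives, 55 moved by less than the SD over mice, the exception being Psen2 with a pseudocount of 16 (9.12). Only quantile normalization and the pseudocount could move the level of a gene that far. Leaving out a mouse moves a mean by less than its SD, and aligned medians keep it. Averaging the probe sets of a gene changes nothing where there is 1. Levels and counts have no direction that could reverse, but the order of the mice did change. It changed for App, Aplp1, Aplp2, Psen2 and Apoe after quantile normalization. With array medians aligned it changed for Aplp2, Bace1, Psen2 and Sncb. The causes were not tested. Counts that rest on which mouse is highest cannot be given without that mouse. No paired analysis was possible because the series holds 1 group.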
